A study of Mus musculus with 6 samples.

Results

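The vacuolar ATPase, cathepsin and LAMP genes are the genes that acidify the lysosome, carry out much of its protein breakdown and line its membrane. The rule that selects them matches gene symbols (Atp6v0 and Atp6v1 subunits a to h, Atp6ap1 and Atp6ap2, cathepsins with a single-letter name, and Lamp1 to Lamp3) and uses no measured value. This gave 41 of the 29721 genes listed, made up of 23 V-ATPase, 15 cathepsin and 3 LAMP genes, and 36 of them had enough reads to be tested. RNA-seq was made from the pancreas of 3 Ela-myc mice with wild-type Parp2 (WT) and 3 Ela-myc mice lacking PARP2 (PARP2 KO), each library from a different animal. All animals were 3 months old. Ela-myc mice carry a Myc transgene driven by an elastase promoter in pancreatic acinar cells, and both groups carry it. Expression of the transgene was not measured here. The labels give neither the PARP2 allele nor the sex, and the extraction protocol speaks of tumour samples where the tissue label says pancreas.

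The V-ATPase is a rotary proton pump. Its cytosolic V1 sector hydrolyses ATP, and its membrane V0 sector carries protons into lysosomes, endosomes and secretory granules. The resulting low pH activates the cathepsins, which are mostly cysteine proteases (Ctsb, Ctsl, Ctss and others), with aspartic (Ctsd, Ctse) and serine (Ctsa, Ctsg) members. LAMP proteins form the glycosylated coat of the lysosomal membrane. In the exocrine pancreas, cathepsin B can activate trypsinogen and cathepsin L degrades trypsinogen and trypsin. Most of these genes are expressed in nearly all cells, whereas Ctss and Ctsk are macrophage and osteoclast genes, Ctsw is a gene of cytotoxic T cells and natural killer cells, and Lamp3 marks mature dendritic cells.

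Many lysosomal genes carry an E-box, CACGTG, near their start, and the longer form TCACGTGA is the core of the CLEAR element read by TFEB and its relatives, while MYC also binds E-boxes. The 250 bases before each RefSeq start were taken from the RefSeq promoters of mouse build GRCm38.p6, where 31 of the 41 genes had an entry, in 35 windows. CACGTG, a palindrome that reads the same on both strands, was found in the windows of 7 genes, or 20% of the member windows against 6.02% of all 32851 windows. TCACGTGA, which contains it, was found for 3 genes, in 8.57% of member windows and 0.785% of all windows. Of the 7 genes, Lamp1 rose, Ctsl fell, and Atp6v0b, Atp6v1a, Ctsa, Ctsd and Ctsf passed the test in neither direction. The whole Lamp1 window (chr8:13158911-13159160, plus strand) is shown because it holds 4 E-boxes, and capitals mark each of them. For Ctsl (chr13:64370739-64370768, minus strand), the cathepsin that fell most, and for the genes with the longer form, Ctsd (chr7:142387908-142387937, minus strand), Ctsa (chr2:164833743-164833772, plus strand) and Atp6v1a (chr16:44139373-44139402, minus strand), 30 bases are shown, with the motif in capitals. These 30-base stretches lie inside the annotated span of their genes, downstream of the outermost gene start. Their windows held 48 (Ctsl), 211 (Ctsd), 164 (Ctsa) and 94 (Atp6v1a) exon bases, counted over all annotated genes.
Lamp1: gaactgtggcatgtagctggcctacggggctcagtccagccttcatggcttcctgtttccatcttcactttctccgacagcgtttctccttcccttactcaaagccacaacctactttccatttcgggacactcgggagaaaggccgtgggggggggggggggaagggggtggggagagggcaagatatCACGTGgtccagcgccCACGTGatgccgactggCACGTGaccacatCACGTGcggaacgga
Ctsl: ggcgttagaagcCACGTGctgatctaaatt
Ctsd: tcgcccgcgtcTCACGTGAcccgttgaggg
Ctsa: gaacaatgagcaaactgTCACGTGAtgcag
Atp6v1a: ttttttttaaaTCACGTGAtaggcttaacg
A match is a string of letters and not a shown binding site, and no binding was measured.

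The 6 libraries held between 28105021 and 32055565 counts. Levels are given as CPM, the reads of a gene relative to the TMM-scaled size of its library. Parp2 had 40.5, 36.5 and 37.5 CPM in the WT libraries and 14.4, 12.4 and 13.7 CPM in the PARP2 KO libraries, a log2 fold change of -1.50 ± 0.097 (SE; adjusted p = 0.00201 in edgeR). The acinar genes that define exocrine pancreas are a list of 21, mostly digestive enzyme genes, with the transcription factor genes Ptf1a, Rbpjl and Bhlha15. Ctrb1 and Cpb1 were the most abundant. The list made up 25.8%, 27.6% and 21.6% of the counts in WT and 3.98%, 13.6% and 0.0173% in PARP2 KO. PARP2 KO library 3 therefore held almost no RNA of these markers of the labelled organ's main cell type. In edgeR, 0 of the 21 acinar genes passed at an adjusted p of 0.05, 1 (Ptf1a) was lower at an unadjusted p under 0.05, and DESeq2 and limma-voom each called 3 lower. Fat cell, T cell, B cell, dendritic cell and endothelial markers were higher in PARP2 KO, as given with the results below. In whole tissue, a change in the number of cells of a type and a change in RNA per cell cannot be told apart. The acinar shares of the WT and PARP2 KO libraries did not overlap. A fit with the acinar level as a covariate therefore cannot separate that level from genotype, whether a call is kept or lost.

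Most of the V-ATPase, cathepsin and LAMP genes did not pass the test. Among the 36 tested, 9 rose and 4 fell in PARP2 KO at an edgeR adjusted p under 0.05, adjusted over all 17652 genes tested. Lamp3, one of the 9, passed the count filter only through the PARP2 KO libraries, so its direction was fixed and it is described without a test. Across all tested genes 53% were called, 28% higher and 25% lower, so the share that rose (25%) was near the background and the share that fell (11.1%) was below it. The groups did not overlap in CPM for 22 of the 36, against 68.1% of all tested genes. Lamp3 is still counted in the 9, in the 25% and in the 22, although its direction was fixed. The shares over all tested genes leave out no such genes either. Without PARP2 KO library 3, again 9 rose and 4 fell, and without PARP2 KO library 1, 2 fell. The median log2 fold change was 0.15 over the 36 genes and 0.016 over all tested genes. Scaling by library totals alone in place of TMM moved the median of all genes to 0.42 and that of the 36 genes to 0.55, and then 27 rose and 2 fell, beside 42.4% and 12.2% of all genes. Of the 36 genes, Atp6v0b, Atp6v1f, Ctsc and Lamp2 turned from lower to higher with that scaling. Within-library ratios, given for the main genes, do not depend on it.

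**Figure D1:**
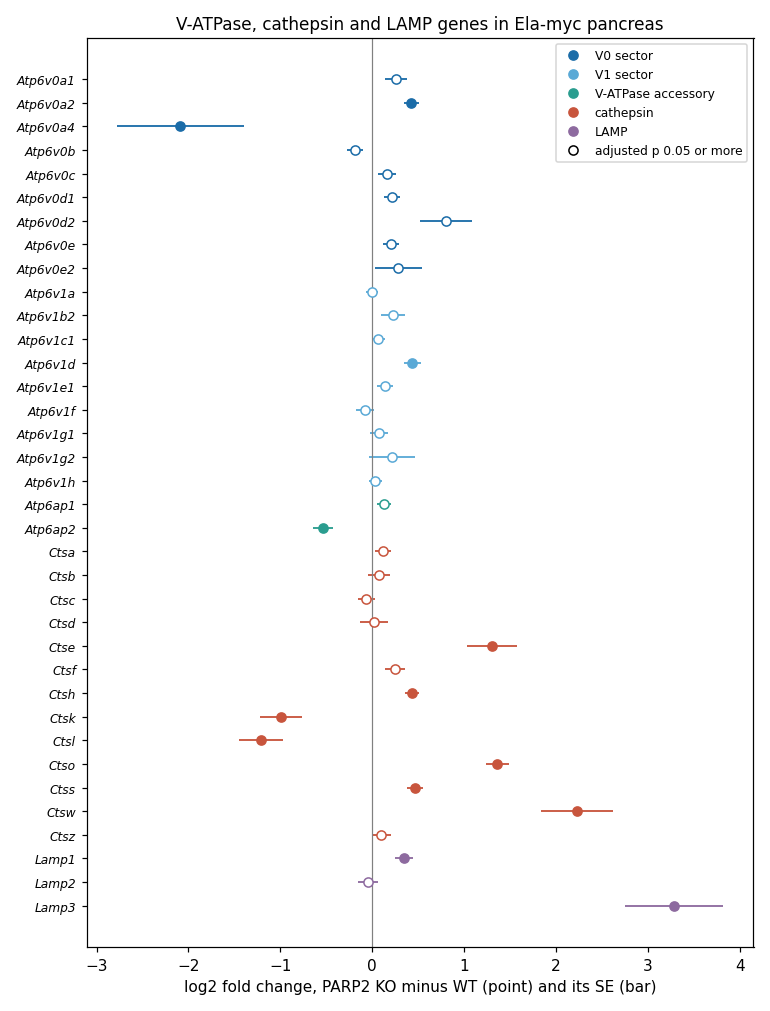
Log2 fold change (PARP2 KO minus WT, 3 libraries each) of the 36 tested genes on the horizontal axis, with bars for the standard error, coloured by role and open where the adjusted p was 0.05 or more. Most points lie near 0, with Lamp3 (3.29) and Ctsw (2.23) farthest to the right and Atp6v0a4 (-2.09) farthest to the left.

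Of 28 housekeeping genes, all tested, 5 rose (Atp6v0a2, Atp6v1d, Ctsh, Ctso and Lamp1), 2 fell (Atp6ap2 and Ctsl) and 21 passed in neither direction, with a median log2 fold change of 0.12. That is 17.9% higher and 7.14% lower, both below the 28% and 25% of all tested genes. Of 13 genes known for restricted expression, 8 were tested, of which Ctse, Ctss and Ctsw rose, beside Lamp3, and Atp6v0a4 and Ctsk fell. The classes were assigned gene by gene and not measured here, so a gene called housekeeping may still differ in level between cell types. No test was made of the difference between these classes.

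**Figure D2:**
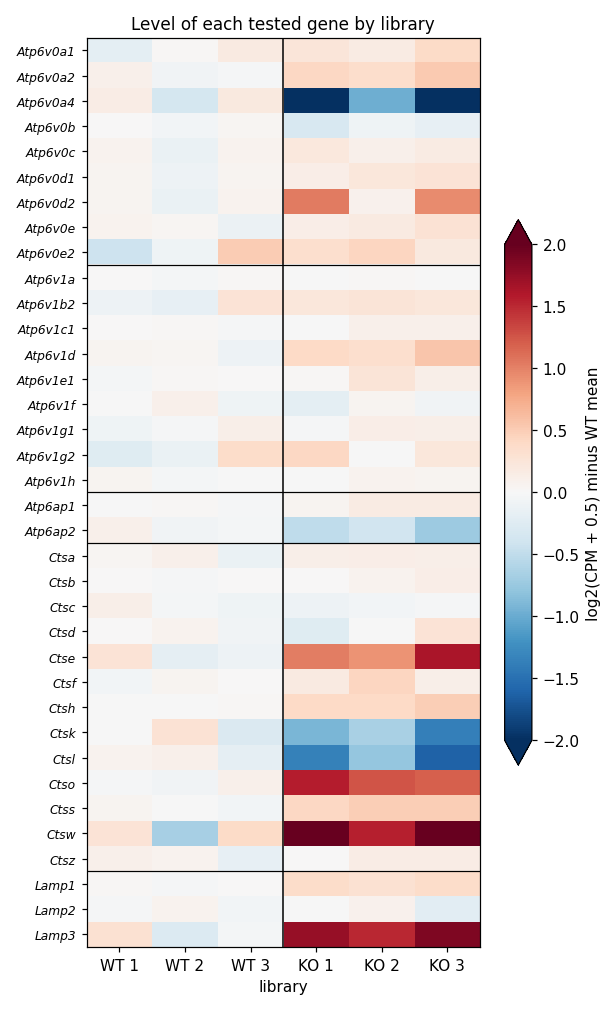
Level of each tested gene (rows, grouped as V0, V1, accessory, cathepsin and LAMP) in each library (columns), as log2(CPM + 0.5) minus the WT mean. The colour scale ends at 2 in each direction, a limit that Ctsw and Atp6v0a4 exceed in PARP2 KO libraries 1 and 3; the V1 rows are almost without colour.

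In the V0 sector, 1 of 9 tested subunits rose and 1 fell, beside 28% higher and 25% lower of all tested genes. Atp6v0a2 (ENSMUSG00000038023, chromosome 5, 124628576 to 124724455, GRCm38) encodes the a2 subunit of Golgi and endosomal pumps, loss of which causes cutis laxa in humans. It had 80.4, 71.1 and 73.4 CPM in WT and 99.7, 95.5 and 107 CPM in PARP2 KO. Every PARP2 KO library lay above every WT library, with a log2 fold change of 0.43 ± 0.086 (SE; adjusted p = 0.00845 in edgeR). With the acinar level as a covariate the log2 fold change was 0.35 and the adjusted p 0.0522.

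Atp6v0a4 (ENSMUSG00000038600, chromosome 6, 38048483 to 38124586) encodes a4, the a subunit of acid-secreting epithelia such as the kidney's intercalated cells. Its level was 9.67, 6.71 and 10.1 CPM in WT and 1.51, 4.17 and 0.565 CPM in PARP2 KO. The groups did not overlap, and PARP2 KO library 2, the one with the most acinar RNA, was nearest to WT. The log2 fold change was -2.09 ± 0.69 (SE; adjusted p = 0.0447 in edgeR). This call ended when WT library 1, 2 or 3 or PARP2 KO library 1 was left out (adjusted p up to 0.142, log2 fold change -3.09 to -1.62 over all libraries left out in turn) and with the acinar covariate (-1.16, adjusted p = 0.0684). It shares 259 exon bases on the same strand with D630045J12Rik, which had 1492 counts over the 6 libraries, so reads there could be split between the genes.

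Per kilobase of transcript, Tcirg1 was the highest of the 4 a subunit genes in every library and Atp6v0a4 the lowest. Tcirg1, which encodes a3, the osteoclast and macrophage isoform, and whose symbol lies outside the selection, made up 48.4% ± 2.09 of the summed a subunit level in WT and 47.6% ± 0.569 in PARP2 KO (SD, n = 3). The share of Atp6v0a2 was 24.1% ± 1.04 and 27.9% ± 0.449, without overlap, and that of Atp6v0a4 was 4.58% ± 0.779 and 0.957% ± 0.882. Atp6v0a1, the a1 isoform best known from neurons, held 22.9% and 23.5%, and its libraries overlapped. It lay above Atp6v0a2 in WT libraries 2 and 3 and below it in the other libraries.

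Atp6v0d2 (ENSMUSG00000028238), the d isoform of osteoclasts and macrophages, had 5.56, 4.86 and 5.65 CPM in WT and 11.5, 5.71 and 10.8 CPM in PARP2 KO. PARP2 KO library 2 lay just above the highest WT library. The log2 fold change of 0.80 (SE 0.28) narrowly missed the threshold at an edgeR adjusted p of 0.0531, and without PARP2 KO library 2 it was 0.00387. The other 6 V0 genes, Atp6v0a1, Atp6v0b, Atp6v0c, Atp6v0d1, Atp6v0e and Atp6v0e2, had log2 fold changes between -0.19 and 0.28 and passed in neither direction.

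The V1 sector was the flattest group. Of 9 tested V1 subunits 1 rose and 0 fell in edgeR, and 0 fell at an unadjusted p under 0.05, in DESeq2 or in limma-voom. Over all tested genes, edgeR called 28% higher and 25% lower. Atp6v1a, the catalytic A subunit, had 109, 106 and 111 CPM in WT and 108, 111 and 108 CPM in PARP2 KO, a log2 fold change of 0.0028 (SE 0.067). Atp6v1d (ENSMUSG00000021114, chromosome 12, 78840725 to 78861638), part of the central rotor stalk, had 42.5, 42.1 and 37.9 CPM in WT and 54.1, 51.8 and 60.0 CPM in PARP2 KO. All its PARP2 KO libraries were above the WT ones, with a log2 fold change of 0.44 ± 0.094 (SE; adjusted p = 0.0105 in edgeR), and with the acinar covariate the log2 fold change was 0.33 (adjusted p = 0.0651). For Atp6v1b2, the B subunit of most cells, WT library 3 stood with the PARP2 KO libraries: there were 96.8, 95.2 and 124 Atp6v1b2 counts per 100 Atp6v1a counts in WT and 123, 123 and 123 in PARP2 KO. The log2 fold change of Atp6v1b2 was 0.23 ± 0.13 (SE; adjusted p = 0.178 in edgeR), and without WT library 3 the adjusted p was 0.0241.

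Isoforms of V1 that are known from acid-secreting epithelia were too low to test. Atp6v1b1 had 22 counts over the WT libraries and 12 over the PARP2 KO libraries, of which 12 came from library 2 alone. Atp6v1c2 had 5 and 31 counts, a ratio of 4.49 after scaling (exact 95% interval 1.73 to 14.8, counting error only), and overlaps the strongly expressed Pdia6 on the opposite strand by 50 exon bases. Atp6v1g3 had 2 and 7 counts.

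The accessory genes differed from each other. Atp6ap2 (ENSMUSG00000031007, chromosome X, 12587801 to 12617049), the prorenin receptor and a factor in pump assembly, had 142, 127 and 130 CPM in WT and 92.9, 101 and 79.9 CPM in PARP2 KO. The groups did not overlap, and the log2 fold change was -0.54 ± 0.11 (SE; adjusted p = 0.0088 in edgeR). Scaled by library totals alone, the difference was -0.14 (adjusted p = 0.31). Atp6ap1, the Ac45 subunit, had 150, 152 and 148 CPM in WT and 155, 169 and 167 CPM in PARP2 KO (log2 difference 0.13 ± 0.076, adjusted p = 0.199 in edgeR). Both are X-linked, as is Lamp2, and Xist, the RNA of the inactive X, was at 1358 CPM in WT library 3 and at 1282 and 1393 CPM in PARP2 KO libraries 2 and 3 and at 1.02 CPM or less in the others. The part of sex in these values was not tested.

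Summed over its 23 genes, the V-ATPase had 1187, 1151 and 1213 CPM in WT and 1209, 1271 and 1264 CPM in PARP2 KO, with overlap. Against all counts of a library, digestive enzymes included, the sum was 0.103% ± 0.0118 in WT and 0.143% ± 0.0102 in PARP2 KO (SD, n = 3), without overlap. The pump genes thus took a larger part of the reads where acinar genes took less.

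Of 13 cathepsins tested, 5 rose (Ctse, Ctsh, Ctso, Ctss and Ctsw), 2 fell (Ctsk and Ctsl) and 6 passed in neither direction. That is 38.5% higher and 15.4% lower, beside 28% and 25% of all tested genes. The summed level was 3915, 3911 and 3628 CPM in WT and 3407, 3749 and 3700 CPM in PARP2 KO. These groups overlapped, with PARP2 KO library 1 below the WT range. Against all counts of a library, the cathepsins held 0.332% ± 0.0153 in WT and 0.416% ± 0.0296 in PARP2 KO (SD, n = 3), without overlap and in the other direction.

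Ctsl (ENSMUSG00000021477, chromosome 13, 64359337 to 64370890), a lysosomal cysteine endopeptidase, was the housekeeping cathepsin that fell. Its level was 959, 984 and 806 CPM in WT and 357, 533 and 299 CPM in PARP2 KO. Every PARP2 KO library lay below every WT library, with a log2 fold change of -1.21 ± 0.24 (SE; adjusted p = 0.00771 in edgeR). With the acinar level as a covariate it was -0.88 (adjusted p = 0.0243), and without PARP2 KO library 3 it was -1.03 (adjusted p = 0.0191). Within each library, there were 82.1, 85.4 and 68.4 Ctsl counts per 100 Ctsb counts in WT and 30.6, 43.3 and 23.3 in PARP2 KO. Ctsl shares 395 exon bases with the pseudogene Gm49230 on the same strand and 1742 of its 6489 exon bases with the antisense gene Gm47123. Neither is among the genes listed with counts, so the Ctsl counts carry that uncertainty.

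Ctsb, the most counted cathepsin and the trypsinogen activator, stood at 1166 ± 12.8 CPM in WT and 1227 ± 56.7 in PARP2 KO (SD, n = 3), a log2 fold change of 0.073 ± 0.12 (SE; adjusted p = 0.625 in edgeR). Ctsd, the main aspartic protease of lysosomes, had 530 ± 26.4 and 538 ± 97.8 CPM, a log2 fold change of 0.023 (SE 0.15). Ctsd shares 808 of its 2351 exon bases with the same-strand gene Gm49369, which is not among the genes listed with counts. The value of Ctsd is uncertain for that reason. Ctsa, Ctsc, Ctsf and Ctsz, a carboxypeptidase, the dipeptidase that activates granzymes and 2 further cysteine cathepsins, had log2 fold changes between -0.063 and 0.25 and passed in neither direction.

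Ctso (ENSMUSG00000028015, chromosome 3, 81932601 to 81956725), a widely expressed cysteine cathepsin, had the smallest p of the 36 tested genes. It had 36.9, 35.9 and 40.3 CPM in WT and 113, 91.1 and 87.3 CPM in PARP2 KO. The PARP2 KO libraries were far above the WT range, with a log2 fold change of 1.36 ± 0.12 (SE; adjusted p = 0.00201 in edgeR). Ctsh (ENSMUSG00000032359, chromosome 9, 90054152 to 90076089), a lysosomal aminopeptidase, had 126, 127 and 130 CPM in WT and 169, 169 and 180 CPM in PARP2 KO. The rise was small and even across libraries, with a log2 fold change of 0.43 ± 0.073 (SE; adjusted p = 0.00507 in edgeR).

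**Figure D3:**
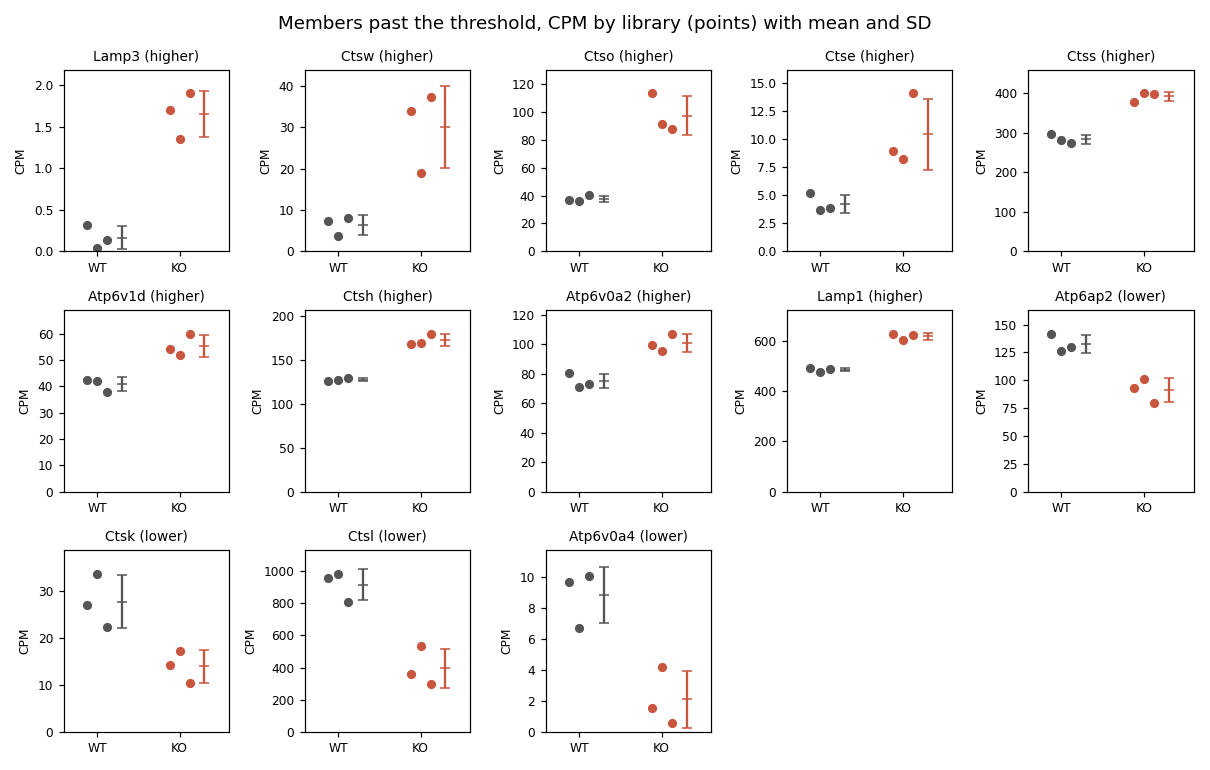
CPM of each of the 13 genes past the threshold in the 3 WT and 3 PARP2 KO libraries (points), with the mean and SD beside them; every vertical axis starts at 0. The groups do not overlap in any panel, and PARP2 KO library 2, the middle point, is the nearest to WT for Ctsl, Ctsk, Atp6ap2, Atp6v0a4, Ctsw, Lamp3, Ctse, Atp6v1d, Atp6v0a2 and Lamp1.

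The macrophage cathepsins moved in opposite directions. Ctss (ENSMUSG00000038642, chromosome 3, 95526786 to 95556403), which trims the invariant chain for antigen presentation, had 296, 281 and 275 CPM in WT and 379, 400 and 398.3 CPM in PARP2 KO. Its groups were well apart, with a log2 fold change of 0.47 ± 0.088 (SE; adjusted p = 0.00694 in edgeR). Ctsk (ENSMUSG00000028111, chromosome 3, 95499256 to 95509362), the collagen-degrading protease of osteoclasts that fibroblasts also make, had 27.1, 33.7 and 22.4 CPM in WT and 14.3, 17.3 and 10.3 CPM in PARP2 KO. It fell by 0.99 on the log2 scale (SE 0.23, edgeR adjusted p = 0.0141), and the call ended without PARP2 KO library 1 (log2 fold change -0.99, adjusted p = 0.0574) and with the acinar covariate (-0.67, adjusted p = 0.057). There were 9.14, 11.98 and 8.17 Ctsk counts per 100 Ctss counts in WT and 3.76, 4.32 and 2.59 in PARP2 KO, without overlap.

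Macrophage markers, summed, were 2540 to 2831 CPM in WT and 3633 to 4301 CPM in PARP2 KO, with 6 of 17 higher and 2 lower, and none at 0. The shares over all tested genes, 28% higher and 25% lower, stand beside this and the later marker lists. The most abundant macrophage markers were Lyz2, at 1112 and 1351 CPM, and Marco, at 53.6 and 728 CPM. Marco varied within WT, at 131, 4.99 and 25.15 CPM. Adgre1, Mrc1, C1qa, C1qb and C1qc were not called. The median log2 fold change of the list was 0.010, below that of Ctss (0.47), and its members ranged from -1.53 for Vsig4 to 3.76 for Marco. In the list of lipid-associated macrophage and osteoclast markers, 1 of 9 tested was higher and 6 were lower. The lower ones were Fabp5, Cd9, Trem2, Gpnmb, Mmp12 and Dcstamp. The most abundant genes were Lpl and Spp1. Lpl, also a fat cell gene, was the higher one, at 426 and 2071 CPM. Spp1, also on the duct list, was at 1237 and 169 CPM and was not called (adjusted p = 0.173 in edgeR). Among its osteoclast markers, Calcr had 57 counts in WT, none of them in library 3 and nearly all in library 1, and 0 in PARP2 KO. Dcstamp, called lower, was at 0.71 and 0.244 CPM, while Ocstamp, not called, was at 0.261 and 0.472 CPM. Fibroblast markers, summed, were 4578 to 4901 CPM in WT and 2848 to 4108 CPM in PARP2 KO, where Col3a1 was at 1502 and 933 CPM and Dcn at 1103 and 1173 CPM. Csf1r, a macrophage receptor gene and 1 of the 6 higher macrophage markers, was at 239 and 500 CPM. There were 115, 128 and 115 Ctss counts per 100 Csf1r counts in WT. In PARP2 KO there were 69.6, 79.3 and 88.3, without overlap and in the other direction than the CPM of Ctss. The part of these cell types in the values of Ctss and Ctsk was not tested.

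Ctsw (ENSMUSG00000024910, chromosome 19, 5465043 to 5468507), the cathepsin of cytotoxic lymphocytes, had 7.44, 3.65 and 8.1 CPM in WT and 34.0, 18.8 and 37.3 CPM in PARP2 KO. All PARP2 KO libraries were above the WT ones, with WT library 2 and PARP2 KO library 2 lowest in their groups. The log2 fold change was 2.23 ± 0.39 (SE; adjusted p = 0.00619 in edgeR). Cytotoxic lymphocyte markers rose with it: 15 of 16 were higher and 0 lower (0 also at an unadjusted p under 0.05, in DESeq2 and in limma-voom), their sum went from 41.8 to 81.2 CPM in WT to 206 to 421 CPM in PARP2 KO, and none was at 0. Cd8a stood at 11.9 and 84.4 CPM and Ccl5 at 16.9 and 69.0 CPM. All 10 T cell markers rose too, with Cd4 at 33.5 and 162 CPM and Lck at 18.0 and 127 CPM. Ctsw counts per 100 counts of Cd3e, a T cell receptor subunit, were 57.2, 90.4 and 75.3 in WT and 47.8, 62.0 and 43.6 in PARP2 KO, and these ranges overlapped. The part of lymphocyte number in the rise of Ctsw was not tested.

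Ctse (ENSMUSG00000004552, chromosome 1, 131638306 to 131675505), an aspartic protease of stomach and antigen-presenting cells, had 5.17, 3.65 and 3.86 CPM in WT and 8.98, 8.27 and 14.1 CPM in PARP2 KO. Its groups did not overlap (log2 difference 1.30 ± 0.27, adjusted p = 0.00918 in edgeR). B cell markers rose in 9 of 9, with Cd22 at 41.1 and 268 CPM and Ms4a1 at 42.3 and 263 CPM, and their part in the rise of Ctse was not tested. Ctsg, the neutrophil and mast cell serine protease, had 1 count in WT and 10 in PARP2 KO, 8 of them in library 2, which also had the highest S100a9 at 10.8 CPM. Of 11 neutrophil and mast cell markers tested, 2 (Elane and Prtn3) were higher and 1 lower, beside 28% and 25% of all tested genes. Elane, with 9 counts in WT and 92 in PARP2 KO, passed the count filter only through the PARP2 KO libraries. Its direction was therefore fixed, as for Lamp3. The lower one was Kit, a receptor of mast cells and other cells, at 67.9 and 38.8 CPM, whereas the mast cell protease genes Cpa3 and Mcpt4 were at 2.47 and 3.37 and at 1.33 and 2.67 CPM without passing the test. Ctsj, a placental cathepsin in mice, had 4 counts in WT and 0 in PARP2 KO, a ratio of at most 1.1 at the upper 95% bound.

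Per kilobase, Ctsl had a smaller and Ctss a larger share of the cathepsin pool in PARP2 KO. Ctsl held 16.6%, 17.2% and 15.2% of the summed cathepsin level in WT and 6.6%, 9.06% and 5% in PARP2 KO. Ctss held 15.5%, 14.7% and 15.5% in WT and 21.0%, 20.4% and 20.03% in PARP2 KO. Neither pair of groups overlapped. Ctsh went from 5.74% ± 0.35 to 7.54% ± 0.309, Ctso from 0.793% ± 0.0848 to 1.99% ± 0.397, while Ctsb (17.9% and 18.3%) and Ctsd (18.1% and 17.8%) overlapped (SD, n = 3). These shares depend on the transcript length used, since with the exon-union length Ctsl held 13.2% and Ctss 19.5% of the WT pool.

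**Figure D4:**
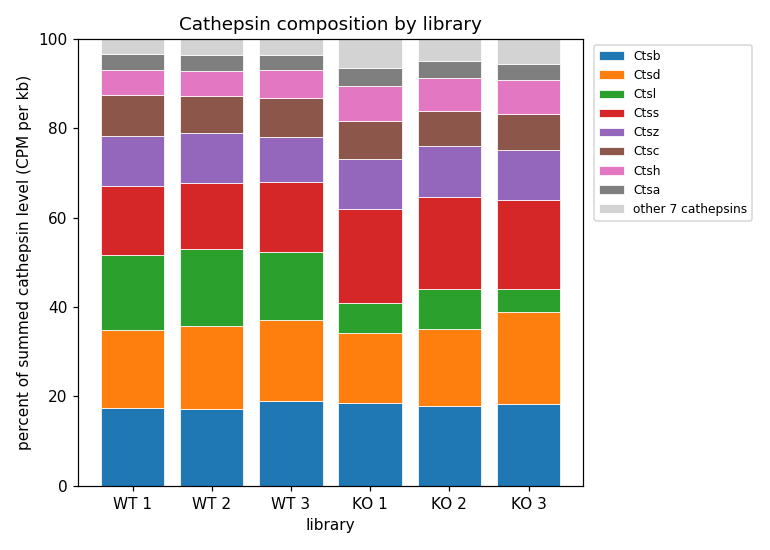
Share of each cathepsin in the summed cathepsin level (CPM per kilobase, vertical axis in percent) in each library. Ctsl narrows from 15.2% to 17.2% in WT to 5% to 9.06% in PARP2 KO, and Ctss widens to between 20.03% and 21.0%.

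Of the LAMP genes, Lamp1 rose, Lamp2 passed in neither direction and Lamp3 was higher in every PARP2 KO library. Lamp1 (ENSMUSG00000031447, chromosome 8, 13159161 to 13175338), the more abundant of the widely expressed LAMP genes, had 491, 476 and 488 CPM in WT and 628, 601 and 623 CPM in PARP2 KO. The difference was small against its level but several times the spread, with a log2 fold change of 0.35 ± 0.094 (SE; adjusted p = 0.0221 in edgeR). Lamp1 lost its call when any library but PARP2 KO library 2 was left out (adjusted p up to 0.102) and with the acinar covariate (0.0968), while the log2 fold change stayed between 0.33 and 0.36. Lamp2 (ENSMUSG00000016534), whose protein is needed for autophagosome clearance and chaperone-mediated autophagy, had 302, 325 and 298 CPM in WT and 306, 327 and 266 CPM in PARP2 KO. These groups overlapped (log2 difference -0.041 ± 0.11, adjusted p = 0.765 in edgeR).

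Lamp3 (ENSMUSG00000041247, chromosome 16, 19653378 to 19706375), known as DC-LAMP, had 0.313, 0.043 and 0.138 CPM in WT and 1.7, 1.36 and 1.9 CPM in PARP2 KO, from 13 and 180 counts in all. The fitted log2 fold change was 3.29 ± 0.54 (SE), given as a description for the reason above. Dendritic cell markers rose in 11 of 12, their sum going from 146 to 243 CPM in WT to 722 to 993 CPM in PARP2 KO, with none at 0. Irf8 was at 51.5 and 223 CPM and Fscn1 at 33.3 and 182 CPM. Lamp3 counts per 100 counts of Ccr7, the homing receptor of mature dendritic cells and naive T cells, were 0.959 ± 0.453 in WT and 1.36 ± 0.395 in PARP2 KO (SD, n = 3), with overlap. The part of dendritic cell number in the level of Lamp3 was not tested.

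In PARP2 KO, Ctsl, Ctsk, Atp6ap2 and Atp6v0a4 were each highest in library 2 (13.6% acinar counts), then in library 1 (3.98%), and lowest in library 3 (0.0173%). For Ctsl and Ctsk, all 6 libraries stood in the order of their acinar share. This order was not particular to them or to acinar genes. The macrophage list genes Trem2, Cd68, Fcgr1 and Cd9 and the duct marker Krt19 had it too, whereas Lyz2 and Adgre1 did not. At 0.0173% acinar counts, PARP2 KO library 3 still had 299 CPM of Ctsl. Duct and islet markers were also low in that library, with summed levels of 17.9 and 3.21 CPM. Because the acinar shares of the genotypes did not overlap, the covariate fit cannot separate the acinar level from genotype. The part of the lower acinar marker level in these falls was not tested.

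**Figure D5:**
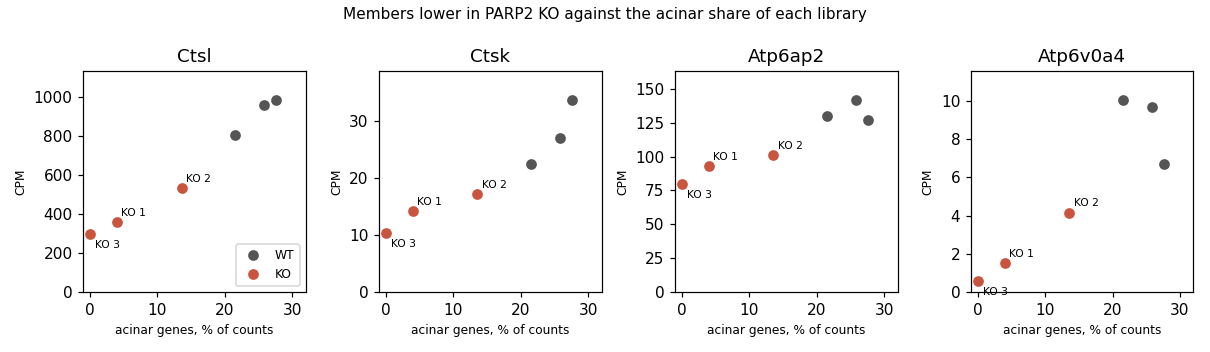
CPM of the 4 genes that fell (vertical axes, starting at 0) against the percent of counts from 21 acinar genes (horizontal axes) in the 3 WT and 3 PARP2 KO libraries. Within PARP2 KO all 4 panels run upward from library 3 to library 1 to library 2, and the WT libraries lie at 21.6% to 27.6%.

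Lysosomal genes outside the selection were read from lists. Of 46 lysosomal hydrolases and their activators, 25 rose and 6 fell, beside 28% and 25% of all tested genes, with a median log2 fold change of 0.30. Gm2a, the activator of ganglioside breakdown, rose from 104 to 228 CPM (log2 difference 1.13 ± 0.11, adjusted p = 0.00201 in edgeR), Acp2, lysosomal acid phosphatase, from 67.0 to 114 CPM, and Ppt1, a palmitoyl thioesterase, from 97.4 to 170.1 CPM. The count that rose was 18 to 24 with 1 library left out (18 without WT library 2), and the count that fell was 2 without WT library 2 or PARP2 KO library 1 and 3 without WT library 1 or PARP2 KO library 3. Of 24 lysosomal membrane and transport genes, 11 rose and 6 fell. Laptm5, a membrane protein of blood cell lysosomes, rose from 212 to 517 CPM, Abcb9, a peptide transporter, rose from 5.6 to 14.7 CPM, and Slc11a2, an iron transporter, fell from 83.6 to 40.2 CPM. In this list the count that fell was 1 without PARP2 KO library 1, 2 without WT library 2 or PARP2 KO library 3, and 3 without WT library 1.

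For the remaining lists too, the shares over all tested genes are 28% higher and 25% lower. Of 18 lysosomal sorting genes 6 rose and 2 fell. Sort1, sortilin, rose from 97.3 to 207 CPM, while Igf2r, the large mannose 6-phosphate receptor, fell from 147 to 109 CPM and Gnptg, a subunit of the enzyme that makes the mannose 6-phosphate tag, fell from 31.8 to 24.1 CPM. Of 19 regulators 5 rose and 3 fell. Tfeb, the factor that reads the CLEAR element, rose from 12.5 to 27.6 CPM (log2 difference 1.14 ± 0.17, adjusted p = 0.00385 in edgeR), and the Rag GTPase genes Rragb and Rragd fell from 6.17 to 3.4 and from 36.7 to 14.5 CPM. Of 11 further V-ATPase genes, among them assembly factors and ATPase-binding proteins, 5 rose and 3 fell. Those of smallest p all rose: Dmxl1 (69.4 to 134 CPM), Rogdi (21.8 to 58.2 CPM) and Ncoa7 (25.8 to 51.7 CPM). The 3 that fell were Dmxl2 (56.1 to 32.1 CPM), Tmem9 (43.7 to 22.6 CPM) and Tmem199 (18.6 to 15.4 CPM). In that list 1 fell without PARP2 KO library 1 and 2 fell without any other single library, as in DESeq2 and limma-voom. Among cystatins, the inhibitors of cysteine cathepsins, 1 of 3 tested rose and 0 fell in edgeR, with 0 also at an unadjusted p under 0.05, in DESeq2 and in limma-voom. It was Cst7, cystatin F of immune cells, at 2.03 and 12.6 CPM. Fat cell markers rose in 12 of 12, with Car3 at 515 and 5727 CPM and Cfd at 399 and 2782 CPM. Endothelial markers rose in 7 of 8, with Pecam1 at 108 and 327 CPM and Kdr at 66.4 and 172 CPM. The part of these cell types in the values of the lysosomal lists was not tested.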

How the data were processed

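mRNA of 6 pancreas samples was sequenced from stranded libraries, per the labels' protocols. The authors deposited a table of raw counts per gene, and a table of log2 values, which equal the log2 of counts divided by DESeq2 size factors plus 1, recomputed here, to within 5.151e-14. FastQC 0.11.5, STAR 2.5.3a, DESeq2 1.28.1 and builds GRCm38 and mm10 are named in the submitters' processing notes; the counting program and its strand setting are not stated there or in the labels, so reads of overlapping antisense genes may not be separated.

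Counts were tested with edgeR 4.0.16 (R 4.3.3; TMM scaling, its default expression filter with a count minimum of 10, robust quasi-likelihood F-test, Benjamini-Hochberg adjustment over 17652 genes, threshold 0.05), with genotype as the only term. Levels per kilobase used the median length of the principal GENCODE transcripts. DESeq2 1.42.0, limma 3.58.1 and other scalings, filters and a covariate were alternatives. The test was also run on simulated data, but no outcome of that run is given here and no result rests on it. Replicate libraries differed by far more than counting noise (chi-square per degree of freedom 29.1 to 460.8), so none was counted as a duplicate. Intervals cover counting error only.

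Values by library are given for Ctss, Ctsk, Ctsw, the LAMP and accessory genes, each member called, and uncalled members with a log2 fold change of 0.5 or more in size. Genes of the lists are mostly given as group means, without the spread between libraries. They are the 3 called genes of smallest p from lysosomal lists and the 2 most abundant genes from cell type lists. Other genes named were chosen after their values were seen. The members and lists were chosen with earlier results of these data known.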

Additional observations from a re-analysis of the deposited data

How the results depend on the processing

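Ctsl, Ctso, Ctss, Ctsh, Ctsw and Ctse kept direction and call under every alternative run at the 0.05 threshold, leaving out each library included. With library totals as the only scaling, 27 members rose and 2 fell, 15 V-ATPase genes rose and 0 fell in edgeR (1 at an unadjusted p under 0.05; DESeq2 and limma-voom, on their own scaling, each called 2), and 9 cathepsins rose. With the acinar level as a covariate, 2 members fell, 0 V-ATPase genes rose (2 at an unadjusted p under 0.05) and 1 fell, and 1 cathepsin fell, while the shares over all genes also dropped, to 18.8% higher and 15.2% lower. At an adjusted p under 0.01 (15.7% and 11.9% of all genes), 2 members fell, 1 V-ATPase gene rose and 1 fell, and 1 cathepsin fell, and with no count filter 1 V-ATPase gene fell. Leaving out 1 library gave 8 to 10 members higher and 2 to 4 lower (2 without PARP2 KO library 1), 2 to 4 V-ATPase genes higher (4 without WT library 3) and 1 to 2 lower, and 5 cathepsins higher and 1 to 2 lower. A few small differences changed sign, as log2 fold changes. Library totals gave 0.20 for Atp6v0b, 0.32 for Atp6v1f, 0.34 for Ctsc and 0.35 for Lamp2, with Atp6v1f and Lamp2 past the threshold. Atp6v1a was -0.0033 with DESeq2 size factors, -0.028 with TMM without acinar genes, -0.0035 in DESeq2, -0.0032 on the deposited log2 values and -0.0229 to 0.0243 with 1 library left out. Ctsd was -0.0064 with TMM without acinar genes, -0.17 with the covariate and -0.11 to 0.16 with 1 library left out. Lamp2 was 0.098 with the covariate and -0.11 to 0.051 with 1 library left out, and Atp6v1f was -0.15 to 0.0005. The causes were not tested. No paired analysis was possible because the animals of the 2 genotypes carry different numbers and no label links them. The expression filter left 5 members untested.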
